A study of Mus musculus with 199 samples.

Results

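T cells sorted from the liver were compared with T cells sorted from the blood of the same mice, in animals that received PBS and did not carry the tumour model of the study. The comparison used 16 of the 199 libraries of the series, 8 titled as liver T cells and 8 titled as blood T cells of PBS mice, chosen by title with no measured value. Each of the 8 mice gave 1 liver library and 1 blood library, tied by the animal code in the library name, and the mice are numbered 1 to 8 here as in the titles. All were male wild-type C57BL/6 mice from an in-house colony, labelled with PBS as the only treatment, and no age is given in the labels used here. The liver effect was also set against that of other mice of the same sex and strain with both libraries. These were 6 DEN ALIOS mice, which carry a carcinogen and diet model of liver cancer and of which 1 is labelled with a vehicle as well, and 6 mice labelled CXCR2i alone, which stands for blockade of CXCR2, a chemokine receptor of neutrophils. Cells positive for the T cell receptor subunit CD3 had been sorted by flow cytometry, and total RNA libraries for low input were made from them. The protocol in the labels speaks of blood and tumours, while the titles of these mice say liver, and liver is used here as in the titles.

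CD3-positive cells of the liver are a mixed population. Besides conventional CD4 and CD8 T cells that pass through with the blood, the mouse liver holds natural killer T cells, gamma delta T cells and memory T cells that stay in the tissue. Naive and recirculating T cells depend on homing receptors such as that encoded by Ccr7 and leave tissue through the sphingosine phosphate receptor encoded by S1pr1, whereas resident cells carry little of these and depend on regulators such as Hobit (Zfp683). The CD3 gate takes all of these cells together, so fewer cells of a type and less RNA per cell cannot be told apart in these bulk libraries.

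The liver libraries varied far more than the blood libraries. Liver libraries held 337110 to 10755816 gene counts (median 4926220.5) and blood libraries 5044292 to 10479909 (median 6613746). Liver libraries 3 and 4 had 337110 and 440785 gene counts, with 90.9% and 89.8% of their entries unaligned, and 1 count in them stood for 2.83 and 3.69 CPM. Levels below 8.49 CPM in library 3 and 11.1 CPM in library 4 therefore rested on fewer than 3 counts. Liver libraries 1, 2 and 3 held 10.5%, 9.85% and 5.79% of ambiguous entries relative to gene counts, while the blood libraries held 1.08% to 1.30%. Small nucleolar RNA genes took 0.0712% to 4.18% of gene counts in liver libraries, above 1% in libraries 1 to 4, 6 and 7, and 0.117% to 0.235% in blood libraries. The predicted genes Gm26917 and Gm42418 took 7.32% to 58.8% of gene counts in liver libraries (median 13.4%), and 9.09% to 18.0% in blood libraries. Their share was 58.81% in liver library 4 and 32.55% in liver library 6. Mitochondrially encoded genes took 4.99% in liver library 7, against 17.2% in blood library 7. Results are also given for animals 5 to 8, whose liver libraries had over 1000000 gene counts and at most 3.74% of ambiguous entries. Neither of these shares entered the choice of animals. That choice of animals was made after the data were seen, and the part of library quality in the results was not tested beyond it.

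**Figure D1:**
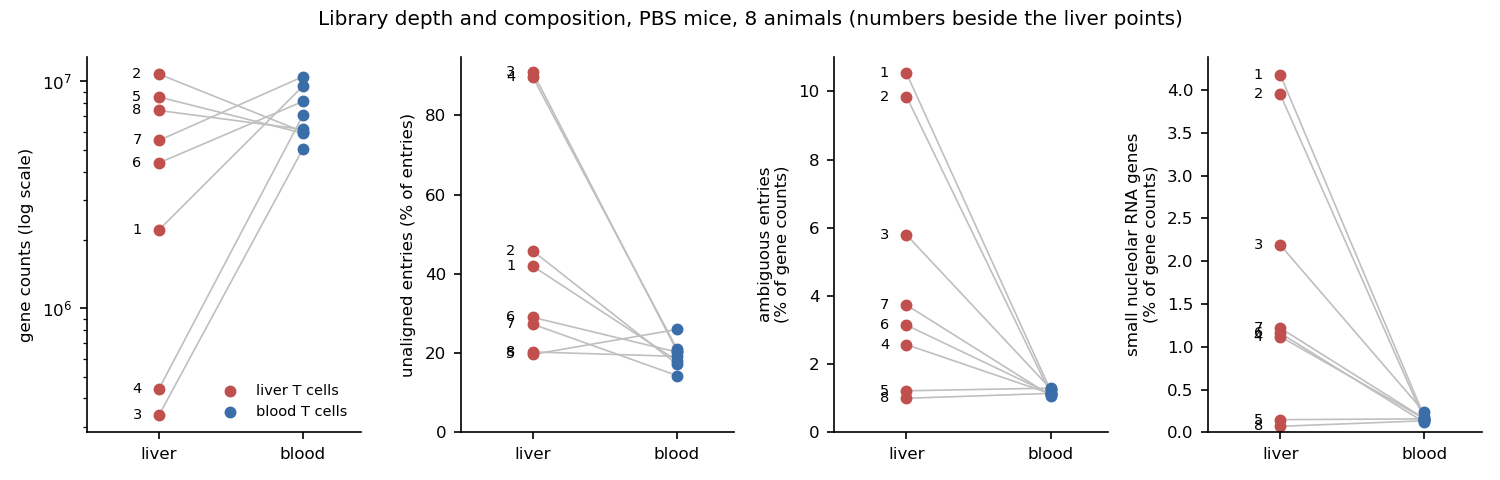
Gene counts per library on a log scale, unaligned entries as a percentage of all entries, and ambiguous entries and small nucleolar RNA genes as percentages of gene counts, for 8 liver libraries (left, numbered by animal) and 8 blood libraries (right), with lines joining the libraries of an animal. Liver libraries 3 and 4 lie at 337110 and 440785 gene counts, and liver libraries 1 and 2 lie at 10.5% and 9.85% of ambiguous entries, while the blood libraries stay between 1.08% and 1.30%.

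In a paired edgeR quasi-likelihood fit with the animal as a block, 550 of 11275 tested genes were higher in liver T cells (4.88%) and 237 were lower (2.10%), together 787 (6.98%), at a Benjamini-Hochberg adjusted p under 0.05, which is the call used throughout. Fold changes below are log2 values ± a standard error derived from the F statistic of the fit of 8 animals. It is not the spread between animals. Levels are counts per 1000000 after TMM scaling. The median log2 fold change of all tested genes was -0.04. For 133 genes (1.18%) every liver library was above every blood library, and for 112 (0.993%) every one was below. Liver was above blood within 8 of 8 animals for 411 genes (3.65%) and below it for 576 (5.11%). The counts depended on the libraries: 429 genes were higher and 116 lower without animals 3 and 4, 316 and 60 without animal 1, and 61 and 3 in animals 5 to 8. The library names carry a number that the labels do not explain, called the name code here. It is shared by the libraries of animals 1 to 3 and by those of animals 4 to 8, except that liver library 8 has a code of its own. Animals 1 to 3 gave 1344 higher and 936 lower of 11217 tested genes, and animals 4 to 8 gave 155 and 6 of 11567. Animals 4 to 7, a choice made after the data were seen, share 1 code at both sites and gave 10 higher and 3 lower genes, and the 781 of the 787 called genes that could be tested there kept their direction, which these animals had helped to set. Of the 787 called genes 785 could be tested in animals 5 to 8, where 785 kept the direction that the same animals had helped to set and 55 were called. Of the 64 genes given with a liver to blood fold change below, 58 were called with all animals, 47 of them higher. Of these 58 genes 57 could be tested without animals 3 and 4, and 53 were called there. Likewise 57 could be tested in animals 1 to 3 and in animals 4 to 8, with 48 called in animals 1 to 3 and 34 in animals 4 to 8, and 14 were called in animals 5 to 8.

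Markers of the sorted cells were present at both sites. The summed level of 16 T cell identity genes was 2970.0 to 4961 TMM-scaled CPM in liver libraries (median 3862), against 3623 to 4280.0 in blood libraries (median 3767). Cd3e, the CD3 epsilon chain (chromosome 9 from 44998740 to 45009627 of GRCm38), ranged from 111 to 585 TMM-scaled CPM in liver libraries (median 371), against 293 to 364 in blood libraries (median 348). Liver library 4 was the lowest, the liver range enclosed the blood range, and no difference was called (log2 fold change 0.01 ± 0.21, edgeR adjusted p = 0.975). Cd3d (-0.29 ± 0.15) and the receptor alpha constant gene Trac (-0.14 ± 0.14) were not called either. In all, 1 of the 16 identity genes was called, beside 6.98% of all tested genes. It was the costimulatory receptor gene Cd28, which was lower (log2 fold change -0.69 ± 0.18, edgeR adjusted p = 0.0293). Cd28 was no longer called when any one of animals 1, 2, 3 or 7 was left out.

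Markers of other cells differed between the sites, and their part in the results below was not tested. Calls among them stand beside 4.88% higher and 2.10% lower of all tested genes. Hepatocyte genes summed to 16.1 to 3221 TMM-scaled CPM in liver libraries (median 188), against 0.395 to 12.6 in blood libraries (median 5.35). The ranges did not overlap, and the highest sums were those of liver libraries 4 and 2. Only 2 of the 18 hepatocyte genes passed the filter on low counts, and Apoa1 was called. No hepatocyte gene was at 0 in every liver library, and 3 of 18 were at 0 in every blood library. Kupffer cell genes, of which none of 12 passed the filter, summed to 5.28 to 31.1 TMM-scaled CPM in liver libraries (median 12.4), against 0 to 2.10 in blood libraries (median 1.05). Erythroid genes went the other way, with sums of 6.62 to 18.0 TMM-scaled CPM in liver libraries (median 13.3), against 29.3 to 416 in blood libraries (median 106), and 5 of 5 tested members were lower. Platelet genes summed to 0.119 to 18.5 TMM-scaled CPM in liver libraries (median 1.97), against 5.26 to 16.4 in blood libraries (median 9.48), with the highest sum in liver library 4, where all of it came from Itga2b, the integrin chain CD41. Itga2b was the sole tested member and was not called, and 6 of the 10 platelet genes had no count in any liver library. The sums of B cell genes overlapped, at 50.9 to 239.7 TMM-scaled CPM in liver libraries (median 95.0), against 66.0 to 244 in blood libraries (median 136), with none of 12 members called.

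Myeloid and natural killer cell genes were higher in liver in part, beside 4.88% of all tested genes. Sums of the 13 monocyte and macrophage genes were 51.7 to 334 TMM-scaled CPM in liver libraries (median 217), against 70.1 to 172 in blood libraries (median 77.0), and 2 of 6 tested members were higher, Csf1r, the receptor for colony stimulating factor 1 (log2 fold change 2.03 ± 0.37, edgeR adjusted p = 0.00344), and Ccr2. Neutrophil genes summed to 28.7 to 153 TMM-scaled CPM in liver libraries (median 41.0), against 4.21 to 15.7 in blood libraries (median 8.94), without overlap, and most of the liver sum was Mmp9. Sums of the other 11 neutrophil genes were higher in liver in 7 of 8 animals. Their ranges overlapped, at 2.78 to 36.9 TMM-scaled CPM in liver libraries (median 6.53), against 0.649 to 11.4 in blood libraries (median 2.55). The defining neutrophil gene Ly6g was near 0 throughout, with at most 0.0969 CPM in a liver library and 0.0988 CPM in a blood library. The metalloproteinase gene Mmp9, which is on the neutrophil list, ranged from 23.6 to 127 TMM-scaled CPM in liver libraries (median 36.0), against 2.00 to 12.4 in blood libraries (median 5.29). It was the sole called member of the 2 tested on that list (log2 fold change 2.82 ± 0.40, edgeR adjusted p = 0.00171). Natural killer and type 1 innate lymphoid cell genes, many of which natural killer T cells also express, summed to 156 to 296 TMM-scaled CPM in liver libraries (median 208), against 72.3 to 159 in blood libraries (median 83.1).

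**Figure D2:**
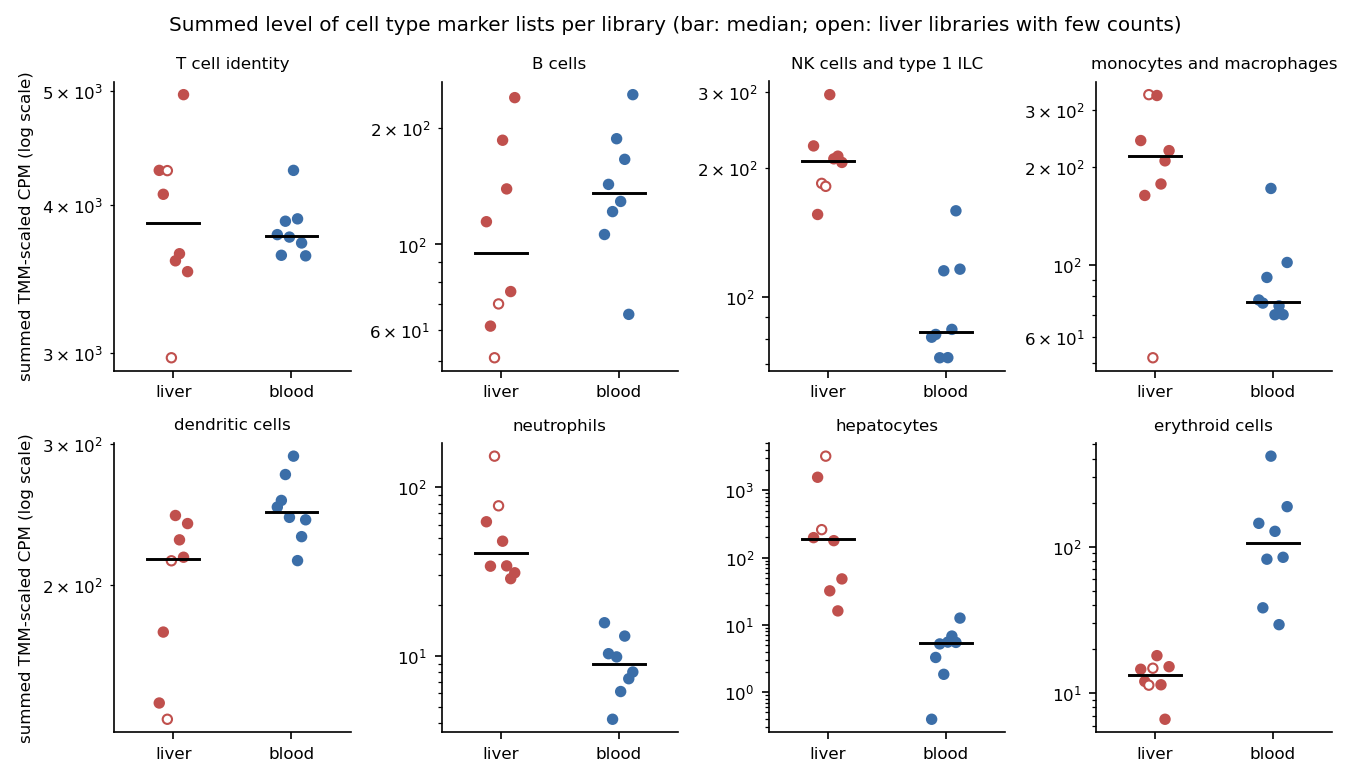
Summed TMM-scaled CPM of 8 marker lists per library on log scales, liver on the left and blood on the right, with the median as a bar and liver libraries 3 and 4 as open points. T cell identity genes had medians of 3862 in liver and 3767 in blood, hepatocyte genes 188 and 5.35, and erythroid genes 13.3 and 106.

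Part of the genes of naive and recirculating T cells were lower in liver T cells. Of 20 tested members 11 were lower and 0 higher (2.10% and 4.88% of all tested genes), with a median log2 fold change of -0.65. S1pr1 (chromosome 3 from 115710433 to 115715072), which lets T cells leave tissue towards blood and lymph, ranged from 88.7 to 261 TMM-scaled CPM in liver libraries (median 195), against 295 to 436 in blood libraries (median 382). Every liver library was below every blood library, and the difference was called (log2 fold change -1.02 ± 0.19, edgeR adjusted p = 0.00328). Il6ra, the interleukin 6 receptor (chromosome 3 from 89864059 to 89913196), ranged from 67.9 to 158 TMM-scaled CPM in liver libraries (median 125), against 199 to 243 in blood libraries (median 235). It was likewise separate between the sites (log2 fold change -0.91 ± 0.15, edgeR adjusted p = 0.00147).

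Ccr7, the chemokine receptor that guides naive T cells into lymph nodes (chromosome 11 from 99144196 to 99155077), ranged from 92.7 to 151 TMM-scaled CPM in liver libraries (median 134), against 195 to 269 in blood libraries (median 229). The ranges did not overlap (log2 fold change -0.85 ± 0.14, edgeR adjusted p = 0.00205). The survival receptor gene Il7r was lower in 8 of 8 animals with overlapping ranges (log2 fold change -0.68 ± 0.17, edgeR adjusted p = 0.023). The call of Il7r was lost without animal 1 or without animal 3. In animals 5 to 8 the log2 fold change was -0.61 (edgeR adjusted p = 0.175) for S1pr1 and -0.65 (edgeR adjusted p = 0.0966) for Ccr7, in the same direction and not called. By name code the log2 fold change of S1pr1 was -1.32 (edgeR adjusted p = 2.48e-06) in animals 1 to 3 and -0.83 (edgeR adjusted p = 0.213) in animals 4 to 8. For Ccr7 it was -1.25 (edgeR adjusted p = 2.65e-06) in animals 1 to 3 and -0.63 (edgeR adjusted p = 0.146) in animals 4 to 8. By name code, the list had 0 higher and 13 lower members of 20 in animals 1 to 3 (median -0.66) and 0 higher and 0 lower of 20 in animals 4 to 8 (median -0.58). Over all tested genes, 936 of 11217 were lower in animals 1 to 3 and only 6 of 11567 in animals 4 to 8. Klf2, which encodes a factor that drives S1pr1, had overlapping ranges and was not called (log2 fold change -0.38 ± 0.17, edgeR adjusted p = 0.164). Other called members included Igfbp4, Lef1, Tcf7, Foxp1, Bach2 and Il6st.

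**Figure D3:**
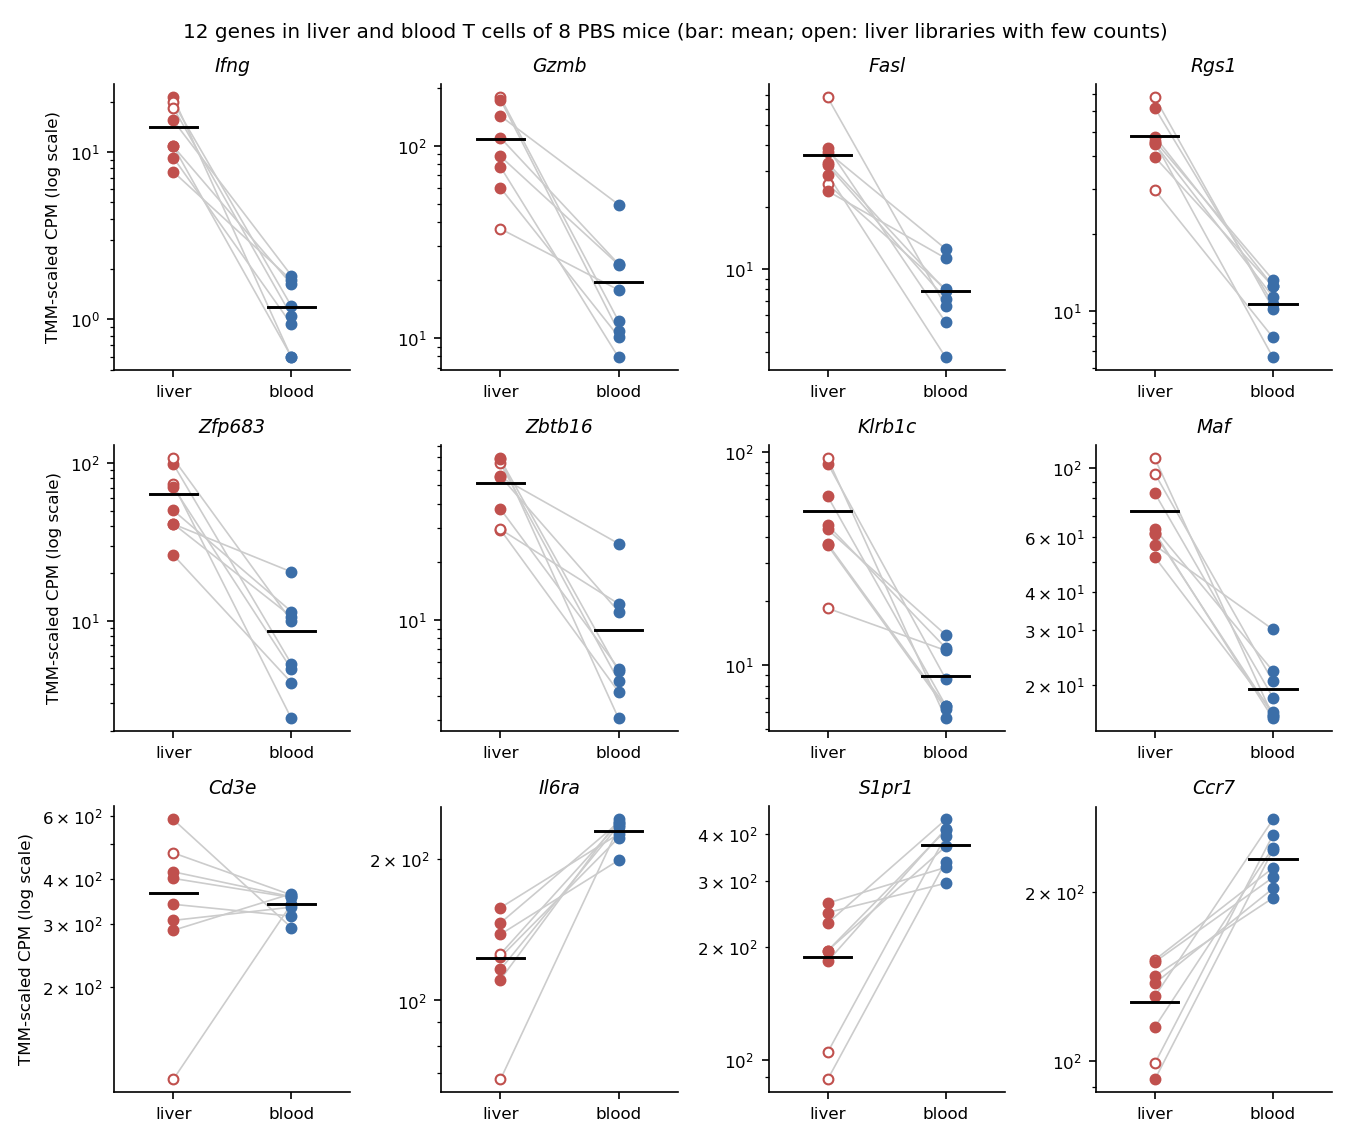
TMM-scaled CPM of 12 genes per library on log scales, liver on the left and blood on the right, with lines joining the libraries of an animal, the mean as a bar, and liver libraries 3 and 4 as open points. Ifng, Fasl, Rgs1, Zfp683, Zbtb16, Klrb1c and Maf lie higher in every liver library than in any blood library, Gzmb is higher in 8 of 8 animals, Cd3e overlaps, and Il6ra, S1pr1 and Ccr7 lie lower in every liver library.

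Part of the genes of tissue residency were higher in liver T cells. Of 19 tested members 10 were higher and 0 lower (4.88% and 2.10% of all tested genes). The median log2 fold change was 0.96, beside -0.04 for all tested genes. Zfp683, which encodes Hobit, a transcription factor of tissue-resident lymphocytes (chromosome 4 from 134053838 to 134058996), ranged from 26.2 to 107 TMM-scaled CPM in liver libraries (median 60.3), against 2.40 to 20.4 in blood libraries (median 7.67). No blood library reached the lowest liver library (log2 fold change 2.89 ± 0.40, edgeR adjusted p = 0.00204). Itga1, the collagen-binding integrin CD49a (chromosome 13 from 114953096 to 115101964), ranged from 40.6 to 136 TMM-scaled CPM in liver libraries (median 63.7), against 6.29 to 24.8 in blood libraries (median 15.6). The sites were again separate (log2 fold change 2.24 ± 0.34, edgeR adjusted p = 0.00276).

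Rgs1, a brake on chemokine receptor signalling that is abundant in resident T cells (chromosome 1 from 144242296 to 144249242), ranged from 29.6 to 67.9 TMM-scaled CPM in liver libraries (median 45.7), against 6.59 to 13.2 in blood libraries (median 11.0). It had the smallest standard error among the 4 residency genes with the largest changes (log2 fold change 2.15 ± 0.18, edgeR adjusted p = 1.02e-05), and in animals 5 to 8 it was 2.04 (edgeR adjusted p = 0.0381). Bhlhe40, a transcription factor of cytokine-producing T cells (chromosome 6 from 108660629 to 108666925), was also above blood in every liver library (log2 fold change 2.17 ± 0.24, edgeR adjusted p = 0.000124). Cxcr6, the receptor that holds T cells in the liver sinusoids, ranged from 28.9 to 184 TMM-scaled CPM in liver libraries (median 90.3), against 33.1 to 52.3 in blood libraries (median 37.9). It was higher in 7 of 8 animals (log2 fold change 1.13 ± 0.24, edgeR adjusted p = 0.00964), the exception being animal 2. In animals 1 to 3, 8 of 18 members were higher and 0 lower (median 1.08), and in animals 4 to 8, 8 of 20 were higher and 0 lower (median 1.10). Over all tested genes, 1344 of 11217 were higher in animals 1 to 3 and 155 of 11567 in animals 4 to 8. By name code the log2 fold change of Zfp683 was 3.84 (edgeR adjusted p = 3.4e-07) in animals 1 to 3 and 2.39 (edgeR adjusted p = 0.0282) in animals 4 to 8. Cd69, which antagonizes S1pr1 and is a common surface marker of residency, overlapped at 62.8 to 183 TMM-scaled CPM in liver libraries (median 106), against 74.9 to 171 in blood libraries (median 93.5), and was not called (log2 fold change 0.06 ± 0.12, edgeR adjusted p = 0.806).

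The regulators and receptors of innate-like T cells were higher in part. Of 21 tested genes of natural killer T cells and other innate T cells 12 were higher and 0 lower. The shares of all tested genes were 4.88% and 2.10%, and the list had a median log2 fold change of 1.39. Zbtb16 encodes PLZF, the transcription factor that directs natural killer T cell development (chromosome 9 from 48654297 to 48836222), and ranged from 29.4 to 69.0 TMM-scaled CPM in liver libraries (median 55.5), against 3.06 to 24.9 in blood libraries (median 5.48). The ranges were separate, with blood library 6 the highest of blood (log2 fold change 2.77 ± 0.35, edgeR adjusted p = 0.000746). Klrb1c, the NK1.1 receptor of natural killer and natural killer T cells in this strain (chromosome 6 from 128778485 to 128789215), ranged from 18.5 to 93.4 TMM-scaled CPM in liver libraries (median 44.4), against 5.61 to 13.8 in blood libraries (median 7.52). All liver libraries lay above all blood libraries (log2 fold change 2.55 ± 0.28, edgeR adjusted p = 0.000171), and the log2 fold change in animals 5 to 8 was 2.32 (edgeR adjusted p = 0.0437).

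Il12rb2, the signalling chain of the interleukin 12 receptor, was higher in 7 of 8 animals and lowest in liver library 4 (log2 fold change 2.42 ± 0.36, edgeR adjusted p = 0.00201). Klrc1, the inhibitory receptor chain NKG2A, was separate between the sites at 30.0 to 90.5 TMM-scaled CPM in liver libraries (median 38.7), against 7.34 to 17.1 in blood libraries (median 10.0), with a log2 fold change of 1.93 ± 0.23 (edgeR adjusted p = 0.000198). Maf, a transcription factor of interleukin 17 and interleukin 10 producing T cells, ranged from 51.6 to 108 TMM-scaled CPM in liver libraries (median 62.9), against 15.6 to 30.2 in blood libraries (median 17.3). It was separate between the sites (log2 fold change 1.87 ± 0.18, edgeR adjusted p = 5.64e-05) and called in animals 5 to 8, at 1.69 (edgeR adjusted p = 0.0469). Ncr1, a receptor used to define natural killer cells and innate lymphoid cells, was listed at 0 in liver library 3 and ranged up to 42.9 CPM in liver, against 2.34 to 10.1 in blood (log2 fold change 1.73 ± 0.38, edgeR adjusted p = 0.013). Of the 21 list members tested in animals 1 to 3, 11 were higher and 1 lower (median log2 fold change 1.40), and of 21 tested in animals 4 to 8, 8 and 0 (median 1.14). All tested genes gave 1344 and 936 of 11217 in animals 1 to 3, and 155 and 6 of 11567 in animals 4 to 8. By name code the log2 fold change of Klrb1c was 3.24 (edgeR adjusted p = 6.43e-08) in animals 1 to 3 and 2.13 (edgeR adjusted p = 0.022) in animals 4 to 8. Natural killer cells and natural killer T cells share most of these genes, and their shares in the sort were not measured here.

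Of 6 tested gamma delta T cell genes 3 were higher and 0 lower (4.88% and 2.10% of all tested genes). The gamma chain variable segment gene Tcrg-V4 ranged from 6.39 to 28.3 TMM-scaled CPM in liver libraries (median 9.33), against 1.60 to 4.45 in blood libraries (median 2.69). The ranges did not overlap (log2 fold change 2.01 ± 0.31, edgeR adjusted p = 0.00113), nor did those of the constant gene Tcrg-C1 (log2 fold change 1.86 ± 0.34, edgeR adjusted p = 0.00328). In liver library 4 each of these values rested on 2 counts. Gamma chain genes have close copies, so counts may be split between them. None of 5 tested alpha and beta chain segments used by invariant natural killer T and mucosal-associated invariant T cells was called, with a median log2 fold change of -0.17. The balance of CD4 and CD8 T cell genes differed by less than its spread over the 8 animals. The log2 ratio of Cd8a to Cd4 counts was 0.0844 ± 0.360 in liver and 0.0487 ± 0.229 in blood (SD, n = 8 animals), with a mean paired difference of 0.0357 ± 0.326 and p = 0.758 in a two-sided exact sign-flip permutation test. Without animals 3 and 4 the difference was 0.196, higher in liver in 5 of 6 animals, with p = 0.0625 in the same exact test. Cd4 itself was lower in liver (log2 fold change -0.56 ± 0.15, edgeR adjusted p = 0.0382), a call lost without any one of animals 1, 2, 3, 5 or 6, and Cd8a was -0.49 ± 0.18 and not called.

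Of 12 tested cytotoxic effector genes 5 were higher in liver T cells and 0 lower, and of 8 tested cytokine genes 4 were higher and 0 lower. These counts stand beside 4.88% higher and 2.10% lower of all tested genes. Ifng, the interferon gamma gene (chromosome 10 from 118441046 to 118445892), ranged from 7.63 to 21.2 TMM-scaled CPM in liver libraries (median 13.2), against 0.593 to 1.83 in blood libraries (median 1.13). Every liver library was above every blood library, although the values of liver libraries 3 and 4 rested on 7 and 5 counts (log2 fold change 3.46 ± 0.34, edgeR adjusted p = 5.64e-05). In animals 5 to 8 the log2 fold change was 2.94 (edgeR adjusted p = 0.0431). Tnf, which encodes tumour necrosis factor, ranged from 10.2 to 32.8 TMM-scaled CPM in liver libraries (median 11.2), against 3.87 to 7.14 in blood libraries (median 5.25). The sites were separate here too (log2 fold change 1.39 ± 0.24, edgeR adjusted p = 0.00256), although liver libraries 3 and 4 had 4 and 3 counts of Tnf.

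Gzmb, the granule protease granzyme B of killer cells, ranged from 36.9 to 178 TMM-scaled CPM in liver libraries (median 99.0), against 7.91 to 49.4 in blood libraries (median 15.0). It was higher in 8 of 8 animals, with blood library 7 above the lowest liver library (log2 fold change 2.57 ± 0.33, edgeR adjusted p = 0.000964). Fasl, the death ligand of cytotoxic T cells, ranged from 23.9 to 67.9 TMM-scaled CPM in liver libraries (median 32.3), against 3.75 to 12.6 in blood libraries (median 7.53), without overlap (log2 fold change 2.17 ± 0.24, edgeR adjusted p = 0.000124). The called cytokine genes included the chemokine gene Xcl1 (log2 fold change 2.06 ± 0.41, edgeR adjusted p = 0.00604) and Il4 (log2 fold change 2.35 ± 0.59, edgeR adjusted p = 0.026). Il4 was lost without any one of animals 1, 3, 5 or 7, and Ccl5, a chemokine stored by memory T cells (log2 fold change 1.19 ± 0.29, edgeR adjusted p = 0.0293), without any one of animals 1, 2, 3, 5, 6 or 7. By name code the log2 fold change of Ifng was 4.14 (edgeR adjusted p = 0.000123) in animals 1 to 3 and 3.08 (edgeR adjusted p = 0.0132) in animals 4 to 8. For Gzmb it was 3.20 (edgeR adjusted p = 7.31e-09) in animals 1 to 3 and 2.17 (edgeR adjusted p = 0.0349) in animals 4 to 8. Among the cytotoxic genes not called were Gzma, Gzmm and Prf1, the last encoding the pore protein perforin.

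The 250 bases before the annotated start of Ifng, Gzmb, Fasl and Tnf are shown because all 4 were called higher. They come from RefSeq on GRCm38.p6 and are written 5′ to 3′ on the strand of the gene, with matches on either strand to the AP-1 site TGACTCA and the NFAT core GGAAA in capitals.
Ifng, chr10:118440796-118441045 (plus strand): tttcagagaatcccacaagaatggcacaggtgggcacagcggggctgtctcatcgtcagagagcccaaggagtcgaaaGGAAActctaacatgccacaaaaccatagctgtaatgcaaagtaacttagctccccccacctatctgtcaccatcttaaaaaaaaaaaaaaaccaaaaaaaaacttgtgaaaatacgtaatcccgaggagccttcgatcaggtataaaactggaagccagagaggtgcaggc
Gzmb, chr14:56262335-56262584 (minus strand): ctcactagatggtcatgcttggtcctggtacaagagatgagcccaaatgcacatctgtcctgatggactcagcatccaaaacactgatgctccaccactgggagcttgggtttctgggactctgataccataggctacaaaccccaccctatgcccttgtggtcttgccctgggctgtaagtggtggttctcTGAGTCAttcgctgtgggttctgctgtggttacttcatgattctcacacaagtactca
Fasl, chr1:161788496-161788745 (minus strand): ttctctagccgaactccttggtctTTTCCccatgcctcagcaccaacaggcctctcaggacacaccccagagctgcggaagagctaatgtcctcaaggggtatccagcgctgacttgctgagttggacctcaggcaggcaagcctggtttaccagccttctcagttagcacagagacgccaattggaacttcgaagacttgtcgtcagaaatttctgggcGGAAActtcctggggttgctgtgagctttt
Tnf, chr17:35202008-35202257 (minus strand): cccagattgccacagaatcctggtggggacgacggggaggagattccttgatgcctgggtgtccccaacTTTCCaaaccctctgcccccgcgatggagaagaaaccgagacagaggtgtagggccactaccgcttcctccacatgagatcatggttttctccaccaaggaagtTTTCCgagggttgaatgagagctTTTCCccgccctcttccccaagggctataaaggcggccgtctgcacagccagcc
The NFAT core was found 1 time for Ifng, 0 times for Gzmb, 2 times for Fasl and 3 times for Tnf, and 55.6% of all 32851 RefSeq promoters of the same length hold it on either strand. The AP-1 site was found 1 time, for Gzmb, and 4.46% of all promoters hold it. No window held both, so no matches overlapped between motifs. A match of letters is a description and not a binding site.

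Genes of the chemokine receptor list, which also holds S1pr1, split into higher and lower members, 4 and 2 of 14 tested. The shares of all tested genes were 4.88% and 2.10%, and the list had a median log2 fold change of 0.01. The lower members were the chemokine receptor gene Ccr7 and the sphingosine phosphate receptor gene S1pr1. Cxcr3, a receptor of type 1 T cells, ranged from 18.5 to 76.3 TMM-scaled CPM in liver libraries (median 50.1), against 13.2 to 27.6 in blood libraries (median 20.8). It was higher in 7 of 8 animals (log2 fold change 1.24 ± 0.19, edgeR adjusted p = 0.000959). Ccr2, which monocytes also express, was likewise higher in 7 of 8 animals (log2 fold change 1.82 ± 0.27, edgeR adjusted p = 0.0016).

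Inhibitory receptor genes were higher in part. Of 14 tested checkpoint and exhaustion genes 7 were higher and 0 lower (4.88% and 2.10% of all tested genes). Their median log2 fold change was 1.11. Pdcd1, which encodes PD-1, ranged from 2.46 to 7.39 TMM-scaled CPM in liver libraries (median 5.55), against 0.937 to 3.46 in blood libraries (median 1.56). It was higher in 8 of 8 animals, with overlapping ranges (log2 fold change 1.69 ± 0.34, edgeR adjusted p = 0.0063). The Pdcd1 values of liver libraries 3 and 4 rested on 2 counts each, and that of library 4 was the highest of liver. Cd160, shared by natural killer T cells and activated CD8 T cells, was separate between the sites (log2 fold change 1.80 ± 0.20, edgeR adjusted p = 0.000124). Havcr2, which encodes TIM-3, was higher in 6 of 8 animals (log2 fold change 2.21 ± 0.40, edgeR adjusted p = 0.00328), and the ectonucleotidase gene Entpd1 in 7 of 8 (log2 fold change 1.98 ± 0.33, edgeR adjusted p = 0.00233). Both are also expressed by myeloid cells, whose marker sums are given above. By name code, the list had 5 higher and 1 lower members of 14 in animals 1 to 3 (median 1.18) and 3 higher and 0 lower of 15 in animals 4 to 8 (median 1.10). All tested genes gave 1344 and 936 of 11217 in animals 1 to 3, and 155 and 6 of 11567 in animals 4 to 8. Ctla4, Tigit, Btla and Tox were tested and not called.

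Transcription factor genes of T cell fate also split, with 4 of 29 tested members higher and 6 lower (4.88% and 2.10% of all tested genes). Tbx21, which encodes T-bet, the regulator of type 1 T cells, ranged from 35.1 to 136 TMM-scaled CPM in liver libraries (median 76.3), against 16.0 to 33.4 in blood libraries (median 23.4). The ranges were separate (log2 fold change 1.58 ± 0.22, edgeR adjusted p = 0.000746), as they were for Id2, a repressor of the naive programme (log2 fold change 1.45 ± 0.26, edgeR adjusted p = 0.00496), and Rora, a nuclear receptor of type 17 and innate lymphocytes (log2 fold change 1.03 ± 0.17, edgeR adjusted p = 0.00151). Irf4, a factor induced by T cell receptor signals, was higher in 8 of 8 animals (log2 fold change 1.04 ± 0.20, edgeR adjusted p = 0.00571). The lower factors were Tcf7, Lef1, Klf3, Klf6, Foxp1 and Bach2. Eomes, Gata3 and Prdm1 were not called.

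Immediate early genes, which respond within minutes to receptor signals and to the handling of tissue, were higher in part. Of 21 tested members 12 were higher and 1, Klf6, was lower (4.88% and 2.10% of all tested genes). The median log2 fold change of the list was 0.93. Egr2, induced by T cell receptor signals, ranged from 4.34 to 17.0 TMM-scaled CPM in liver libraries (median 7.61), against 0.541 to 1.86 in blood libraries (median 1.04), without overlap (log2 fold change 2.88 ± 0.41, edgeR adjusted p = 0.000702). The Egr2 values of liver libraries 3 and 4 rested on 6 and 4 counts. Egr1 was separate between the sites as well (log2 fold change 1.89 ± 0.28, edgeR adjusted p = 0.000859). Nr4a1, which encodes NUR77, ranged from 5.59 to 15.8 TMM-scaled CPM in liver libraries (median 11.2), against 2.10 to 7.76 in blood libraries (median 2.81), and blood library 4 overlapped the liver range (log2 fold change 1.84 ± 0.27, edgeR adjusted p = 0.000792). In animals 1 to 3, 9 of 21 members were higher and 1 lower (median 1.11), and in animals 4 to 8, 6 of 22 were higher and 0 lower (median 0.75). All tested genes gave 1344 and 936 of 11217 in animals 1 to 3, and 155 and 6 of 11567 in animals 4 to 8. Among 11 tested heat shock genes 2 were higher, the near-identical copies Hspa1a (log2 fold change 3.08 ± 0.77, edgeR adjusted p = 0.0282) and Hspa1b. The call of Hspa1a was lost without any one of animals 1, 2 or 6, and the gene could not be tested without animals 3 and 4.

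Part of the proliferation genes were higher in liver. Of 23 tested cell cycle genes 10 were higher and 0 lower (4.88% and 2.10% of all tested genes). Their median log2 fold change was 1.09. Tpx2, a spindle assembly factor, ranged from 11.1 to 28.5 TMM-scaled CPM in liver libraries (median 17.5), against 2.03 to 16.1 in blood libraries (median 3.65). It was higher in 8 of 8 animals (log2 fold change 2.07 ± 0.30, edgeR adjusted p = 0.000746), and so was the centromere gene Cenpf (log2 fold change 1.81 ± 0.36, edgeR adjusted p = 0.00906). For both genes blood library 7 was the highest of blood. Of the 20 list members tested in animals 1 to 3, 9 were higher and 0 lower (median log2 fold change 1.57), and of 26 tested in animals 4 to 8, 0 and 0 (median 1.13). Over all tested genes, 1344 of 11217 were higher in animals 1 to 3 and only 155 of 11567 in animals 4 to 8. Ccnd1, cyclin D1, was higher in 8 of 8 animals (log2 fold change 3.12 ± 0.40, edgeR adjusted p = 0.000325) and called in animals 5 to 8, at 3.43 (edgeR adjusted p = 0.0437). Liver libraries 3 and 4 had 4 counts and 1 count of Ccnd1.

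Calls in several other programmes stand beside 4.88% higher and 2.10% lower of all tested genes. Interferon-stimulated genes had 2 higher and 1 lower of 20 tested and a median of 0.01. The interferon-induced GTPase gene Mx1 was separate between the sites at 17.3 to 27.6 TMM-scaled CPM in liver libraries (median 22.4), against 5.61 to 10.4 in blood libraries (median 8.50), with a log2 fold change of 1.38 ± 0.19 (edgeR adjusted p = 0.000702). The antiviral gene Rsad2 was lower (log2 fold change -1.10 ± 0.32, edgeR adjusted p = 0.0497), a call lost on leaving out any one animal except animal 6. Glycolysis and hypoxia genes had 1 higher and 1 lower of 20, and lipid handling genes 3 higher and 1 lower of 15. Mitochondrially encoded genes took 13.8% ± 7.63 of gene counts in liver and 13.1% ± 3.91 in blood (SD, n = 8), with p = 0.820 in the two-sided exact sign-flip test. For cytosolic ribosomal protein genes the shares were 2.10% ± 0.798 in liver and 1.96% ± 0.329 in blood (SD, n = 8), with p = 0.703 in the same exact test. The smallest p this test can give is 0.00781.

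Genes of class II antigen presentation, which dendritic cells, macrophages and B cells express, were higher in 4 of 11 tested cases and lower in 0. The shares of all tested genes were 4.88% and 2.10%. Dendritic cell genes summed to 136 to 244 TMM-scaled CPM in liver libraries (median 215), against 214 to 289 in blood libraries (median 246), with 2 of 4 tested members higher and 1, Ccr7, lower. H2-Ab1 ranged from 53.8 to 221 TMM-scaled CPM in liver libraries (median 137), against 12.9 to 66.5 in blood libraries (median 35.8). It was higher in 8 of 8 animals (log2 fold change 2.05 ± 0.35, edgeR adjusted p = 0.00696), as was its regulator Ciita (log2 fold change 1.30 ± 0.21, edgeR adjusted p = 0.00133). Itgax, the integrin CD11c of dendritic cells and of some activated T and natural killer cells, was higher in 7 of 8 animals (log2 fold change 2.09 ± 0.29, edgeR adjusted p = 0.000706).

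**Figure D4:**
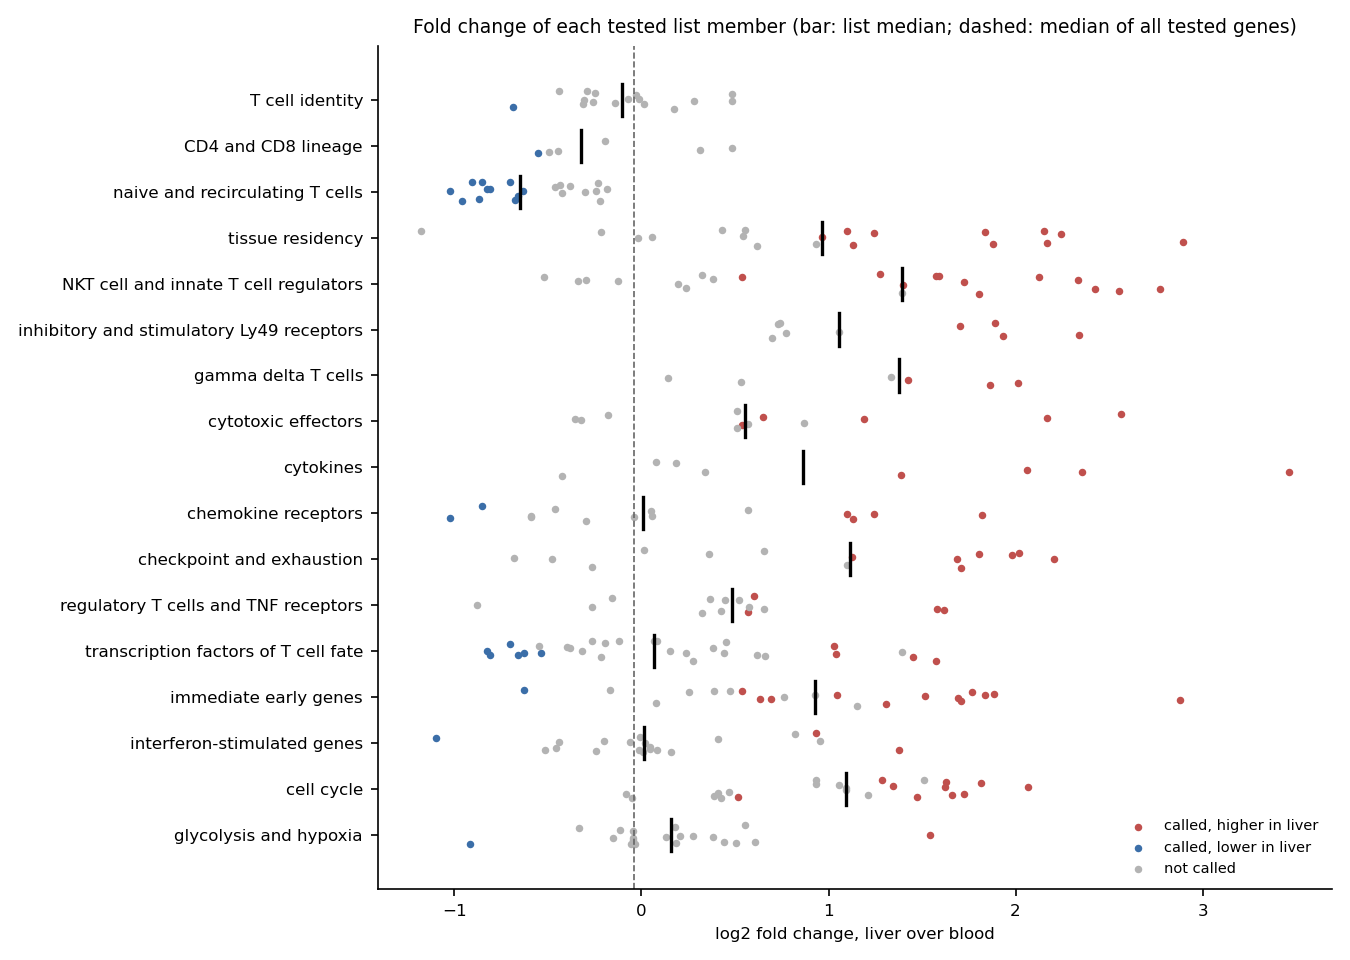
Log2 fold change, liver over blood, of each tested member of 17 gene lists, coloured by call, with the list median as a black bar and the median of all tested genes (-0.04) as a dashed line. Medians lie at 1.39 for innate T cell regulators, 0.96 for tissue residency and -0.65 for naive and recirculating T cells.

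The largest changes included genes of T cells and of other cells. Apoa1, the hepatocyte gene of high density lipoprotein, ranged from 1.87 to 148 TMM-scaled CPM in liver libraries (median 18.3), against 0 to 0.601 in blood libraries (median 0.143), with a log2 fold change of 6.65 ± 0.96 (edgeR adjusted p = 0.004), and was 3.86 (edgeR adjusted p = 0.145) in animals 5 to 8. The complement gene C3 ranged from 11.4 to 229 TMM-scaled CPM in liver libraries (median 39.0), against 0.198 to 3.68 in blood libraries (median 1.16), with a log2 fold change of 5.12 ± 0.58 (edgeR adjusted p = 0.00116). Serpina3f, a protease inhibitor gene, ranged from 8.45 to 48.1 TMM-scaled CPM in liver libraries (median 21.4), against 0.601 to 2.97 in blood libraries (median 1.55). It was separate between the sites (log2 fold change 3.52 ± 0.38, edgeR adjusted p = 0.000109) and 3.52 (edgeR adjusted p = 0.0381) in animals 5 to 8. Asb2, a subunit of a ubiquitin ligase, had the same separation (log2 fold change 3.03 ± 0.31, edgeR adjusted p = 0.000109).

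On the lower side, haemoglobin and haem synthesis genes led. Hba-a2, an alpha globin gene with a near-identical copy, was at 0 in 6 liver libraries and at most 0.581 CPM in liver, against 1.95 to 43.6 CPM in blood (log2 fold change -5.83 ± 0.43, edgeR adjusted p = 4.2e-06). Alas2, the haem synthesis enzyme of red cell precursors, was at 0 in 4 liver libraries (log2 fold change -4.58 ± 0.54, edgeR adjusted p = 0.000265). Outside these, Il1rl2, the interleukin 36 receptor gene, was lower in 8 of 8 animals (log2 fold change -1.31 ± 0.30, edgeR adjusted p = 0.0136), with 2 and 0 counts in liver libraries 3 and 4. The sialyltransferase gene St8sia1 was below blood in every liver library at 22.2 to 80.8 TMM-scaled CPM in liver libraries (median 55.1), against 105 to 136 in blood libraries (median 127), with a log2 fold change of -1.27 ± 0.21 (edgeR adjusted p = 0.00165).

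The liver effect of PBS mice was set against that of the 2 other groups with paired libraries, in 1 fit of 20 animals over 12884 genes. The 3 groups share no name code, so group and code cannot be told apart, and the comparisons share the PBS libraries. Against DEN ALIOS mice the effect was more positive for 334 genes (2.59%) and more negative for 370 (2.87%). Against CXCR2i mice it was more positive for 172 genes (1.33%) and more negative for 124 (0.962%). With PBS animals 5 to 8 alone these counts were 182 and 161 against DEN ALIOS mice, and 20 and 40 against CXCR2i mice.

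Part of the immediate early genes had a smaller liver effect in PBS mice in each comparison. Of 24 tested members 11 were more negative and 0 more positive against DEN ALIOS mice (2.87% and 2.59% of all genes). The median difference was -0.96, beside -0.02 for all genes. Against CXCR2i mice 14 were more negative and 0 more positive (0.962% and 1.33% of all genes), with a median difference of -1.14. Nr4a1 had medians (and ranges) of 11.6 (5.75 to 16.0) TMM-scaled CPM in PBS livers and 2.93 (2.20 to 8.09) in PBS blood, against 62.6 (44.8 to 71.3) in DEN ALIOS livers and 4.07 (3.42 to 5.12) in DEN ALIOS blood. The difference of the log2 liver effects was -2.00 ± 0.26, edgeR adjusted p = 5.49e-05. In CXCR2i mice Nr4a1 was at 101 (70.2 to 169) TMM-scaled CPM in CXCR2i livers and 3.81 (1.78 to 5.34) in CXCR2i blood, and the difference from that effect was -3.00 ± 0.26, edgeR adjusted p = 1.06e-07.

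Dusp1, an immediate early phosphatase, was at 12.7 (5.62 to 35.8) TMM-scaled CPM in PBS livers and 8.48 (5.62 to 12.1) in PBS blood, against 152 (65.7 to 203) in CXCR2i livers and 6.39 (4.99 to 9.37) in CXCR2i blood. The PBS ranges overlapped and the CXCR2i ranges did not, with a difference of -3.15 ± 0.47, edgeR adjusted p = 0.00117, and -3.44 (edgeR adjusted p = 0.0196) with PBS animals 5 to 8 alone. Hspa1a was at 4.82 (0.527 to 17.1) TMM-scaled CPM in PBS livers and 0.240 (0 to 2.72) in PBS blood, against 121 (79.2 to 234) in CXCR2i livers and 0.244 (0 to 1.33) in CXCR2i blood, and the difference was -5.72 ± 1.23, edgeR adjusted p = 0.0225, a call lost with PBS animals 5 to 8 alone. Rgs1 had a smaller liver effect in PBS mice, with medians of 47.3 (29.5 to 68.5) TMM-scaled CPM in PBS livers and 11.5 (6.92 to 13.8) in PBS blood, against 495 (296 to 794) in DEN ALIOS livers and 37.6 (24.3 to 89.6) in DEN ALIOS blood (-1.44 ± 0.33, edgeR adjusted p = 0.0152). That call was also lost with PBS animals 5 to 8 alone. Of 20 tested residency genes 6 were more negative and 0 more positive against DEN ALIOS mice, and 4 and 0 against CXCR2i mice. Of all genes 2.87% and 0.962% were more negative in these comparisons.

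Some genes of innate-like T cells had a larger liver effect in PBS mice. Of 22 tested genes of natural killer T cells and other innate T cells 2 were more positive and 0 more negative in each comparison. Their median difference was 0.23 against DEN ALIOS mice and 0.56 against CXCR2i mice. The list of Ly49 receptors of natural killer cells and some T cells, which holds Klrc1, had 12 tested genes. In each comparison 3 of them were more positive and 0 more negative, with median differences of 0.96 and 0.72. Of all genes 2.59% were more positive against DEN ALIOS mice and 1.33% against CXCR2i mice. Of 9 tested gamma delta T cell genes 1 was more positive and 1 more negative against DEN ALIOS mice, and 0 and 2 against CXCR2i mice. Klrb1c was at 45.9 (18.5 to 94.1) TMM-scaled CPM in PBS livers and 7.84 (5.86 to 14.5) in PBS blood, against 4.17 (1.42 to 6.91) in DEN ALIOS livers and 5.78 (2.77 to 7.49) in DEN ALIOS blood. The PBS ranges were separate while those of DEN ALIOS mice overlapped, and the difference was 2.98 ± 0.58, edgeR adjusted p = 0.00618, or 2.76 (edgeR adjusted p = 0.0364) with PBS animals 5 to 8 alone. Against CXCR2i mice the difference for Klrb1c was 2.37 ± 0.54, edgeR adjusted p = 0.0263, and with PBS animals 5 to 8 alone it was 2.13 (edgeR adjusted p = 0.146) and not called. Klrc1 differed against CXCR2i mice (1.76 ± 0.40, edgeR adjusted p = 0.024), a call lost with PBS animals 5 to 8 alone. Tcrg-V4 (1.81 ± 0.48, edgeR adjusted p = 0.0284) and Il12rb2 (1.71 ± 0.47, edgeR adjusted p = 0.0379) were also more positive in PBS mice than in DEN ALIOS mice, and both calls were lost with PBS animals 5 to 8 alone.

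Part of the naive and recirculating T cell genes had a liver effect that was less negative in PBS mice than in DEN ALIOS mice. Of 20 tested members 8 were more positive and 1 more negative (median difference 0.62), and against CXCR2i mice 0 and 1. The shares of all genes were 2.59% and 2.87% against DEN ALIOS mice, and 1.33% and 0.962% against CXCR2i mice. Ccr7 had medians of 139 (94.0 to 155) TMM-scaled CPM in PBS livers and 238 (204 to 282) in PBS blood, against 48.0 (31.6 to 62.6) in DEN ALIOS livers and 202 (172 to 260.5) in DEN ALIOS blood. Both groups had separate sites, with a difference of 1.25 ± 0.21, edgeR adjusted p = 0.00107, and 1.47 (edgeR adjusted p = 0.00436) with PBS animals 5 to 8 alone. Cd8a had a difference of -0.83 ± 0.23, edgeR adjusted p = 0.0369, a call lost with PBS animals 5 to 8 alone and in a fit of these 2 groups alone. Over both comparisons, fits of only the 2 groups compared lost 7 of the named differences, Cd8a included, and kept 14. Checkpoint and exhaustion genes were more negative in 6 of 16 tested cases against DEN ALIOS mice and in 2 of 16 against CXCR2i mice. Among markers of other cells, 3 of 13 hepatocyte genes were more positive against CXCR2i mice, among them Apoa1. All CXCR2i blood libraries were above all PBS blood libraries for Apoa1. Against DEN ALIOS mice 2 of 11 monocyte and macrophage genes and 2 of 12 B cell genes were more negative. The part of these other cells in the differences was not tested.

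**Figure D5:**
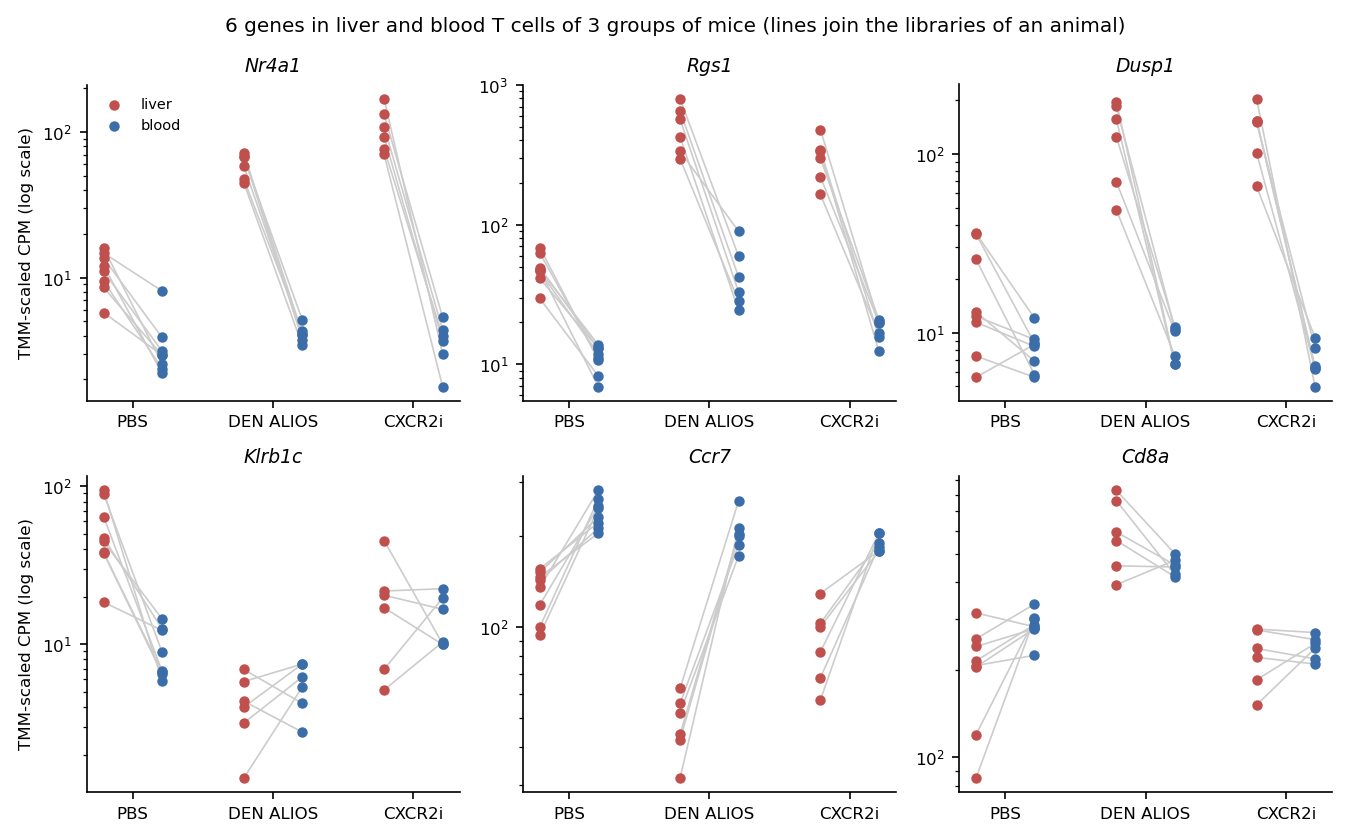
TMM-scaled CPM of 6 genes per library on log scales in PBS, DEN ALIOS and CXCR2i mice, with liver left of blood in each group and lines joining the libraries of an animal. Nr4a1 has liver medians of 11.6 in PBS mice, 62.6 in DEN ALIOS mice and 101 in CXCR2i mice over similar blood levels, while Klrb1c has its highest liver values in PBS mice.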

How the data were processed

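The libraries were paired-end RNA-seq of sorted CD3-positive cells, made with a stranded total RNA kit for low input, per the labels' protocols. The authors deposited unnormalized counts of reads for 37713 Ensembl genes. Per the submitters' processing notes the build was GRCm38 and the tools were HISAT2 2.1.0 and HTSeq 0.11.2, after Trim Galore 0.6.4 and FastQC 0.11.8. Neither the strand used in counting nor the release of the annotation was given in the sources used here, which leaves antisense neighbours and close copies uncertain. The 5 summary entries of HTSeq, which held 72.4% of all entries in the 16 libraries, entered no library size and no test. Symbols and coordinates came from the GRCm38 annotation by identifier for 37693 genes.

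Counts were fitted with edgeR 4.0.16 in R 4.3.3 (TMM factors, filterByExpr with a minimum count of 10 and a minimum total of 15, robust quasi-likelihood) with the animal as a block and Benjamini-Hochberg adjustment at 0.05. The liver effects of 3 groups were compared in 1 fit with animal blocks and a group by site term. DESeq2 1.42.0, RLE scaling, no filter, no replicate block, a 2-fold minimum and subsets of animals were alternatives. Differences of single values used two-sided exact sign-flip tests over 8 animals. In simulated counts the fit called 81.8% of genes changed 2-fold and 99% of those changed 4-fold, and 1.12% of its calls were false. The simulation used the real library sizes, but the same dispersion at both sites and no differences in library quality or transcripts of other cells. These rates may therefore not hold for the real liver libraries.

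The animal in the library name ties liver and blood, and the title numbers name the same animals. Deviations from the site means correlated by 0.0452 on average within and -0.00581 between animals. Within animals the correlation ran from -0.159 in animal 7 to 0.148 in animal 2. Only 3 of the 8 liver libraries were closest to the blood library of their own animal. No library was a copy of another within sampling noise: over the 28 pairs of each site, chi-square per degree of freedom was at least 9.92 in liver and 7.47 in blood. Where a count is 0, a level of up to 3 counts is possible.

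Genes given with values are a set of T cell genes, up to 4 called members of each gene list with the largest change, the largest changes higher or lower in 8 of 8 animals, and the largest differences between groups. Other list members are named without values, and some are not reported here. Members and lists were chosen with earlier results of these data known.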

Additional observations from a re-analysis of the deposited data

Results flagged for a closer look

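For 27 of 138 groups of 8 libraries, 1 library lay far from the others of its site. The rule used flags about 1 in 20 groups of independent, normally distributed values. The groups here share libraries and hold levels that were not log-transformed, so that rate need not hold for them. Liver library 3, which has 337110 gene counts, was the highest of liver for Il12rb2 (141 CPM), Tcrg-C1 (36.8 CPM), Fasl (67.9 CPM), Tbx21 (136 CPM), Id2 (458 CPM), Rora (108 CPM) and Mmp9 (127 CPM). Liver library 4 was the lowest of liver for Cd3d (55.4 CPM) and for the log2 ratio of Cd8b1 to Cd4 counts (-1.35), and the highest for Il4 (14.8 CPM). Liver library 2 was the highest for Tnf (32.8 CPM) and the lowest for Cd160 (20.8 CPM), and liver library 5 was the highest for Hba-a2 (0.581 CPM).

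In blood, library 4 was the highest for Csf1r (21.4 CPM), Nr4a1 (7.76 CPM), Hba-a2 (43.6 CPM) and Alas2 (49.6 CPM). Blood library 6 was the highest for Zbtb16 (24.9 CPM), Maf (30.2 CPM) and Pdcd1 (3.46 CPM), and blood library 7 for the cell cycle genes Tpx2 (16.1 CPM) and Cenpf (43.3 CPM) and for Gzmb (49.4 CPM). Single blood libraries also stood high for Klf2 (565.0 CPM, library 5), Cd69 (171 CPM, library 2), Ciita (27.9 CPM, library 8) and the log2 ratio of Cd8a to Cd4 counts (0.541, library 1).

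The liver effect of PBS mice differed from that of DEN ALIOS mice in the test of the difference for 11 named genes. The log2 differences were 2.98 for Klrb1c, 2.18 for Mmp9, 1.81 for Tcrg-V4, 1.71 for Il12rb2, 1.25 for Ccr7 and 5.71 for the small nucleolar RNA gene Snord4a. They were -2.00 for Nr4a1, -2.73 for Dusp1, -1.44 for Rgs1, -0.83 for Cd8a and -4.37 for Hspa1a. With PBS animals 5 to 8 alone the calls of Nr4a1, Dusp1, Klrb1c, Ccr7 and Snord4a were made again, and those of Mmp9, Tcrg-V4, Il12rb2, Rgs1, Cd8a and Hspa1a were lost (edgeR adjusted p = 0.057 to 0.213).

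Against CXCR2i mice 10 named genes differed. The log2 differences were 6.88 for Apoa1, 6.30 for Snord4a, 2.37 for Klrb1c, 2.25 for Mmp9 and 1.76 for Klrc1. They were -3.00 for Nr4a1, -3.15 for Dusp1, -3.28 for the orphan receptor gene Nr4a2, -1.95 for Rgs1 and -5.72 for Hspa1a. With PBS animals 5 to 8 alone the calls of Nr4a1, Dusp1 and Snord4a were made again, and those of Apoa1, Klrb1c, Mmp9, Klrc1, Nr4a2, Rgs1 and Hspa1a were lost (edgeR adjusted p = 0.0595 to 0.211). Snord4a belongs to the small nucleolar RNA genes, whose share of counts was up to 4.18% in PBS liver libraries. In both comparisons its call in animals 5 to 8 rested on liver libraries 6 and 7, at 26.1 and 13.0 TMM-scaled CPM. Liver libraries 5 and 8 were at 0.301 and 0.608, within the PBS blood range of 0 to 1.13. Over both comparisons, fits of only the 2 groups compared called 14 of these named differences again and lost 7. The groups share no name code, so group and code cannot be told apart.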

How the results depend on the processing

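Counts of genes higher and lower in liver were 1614 and 676 with no filter, 1108 and 557 with DESeq2, 2156 and 1732 with all 3 groups in the fit, 1344 and 936 in animals 1 to 3, 155 and 6 in animals 4 to 8, 10 and 3 in animals 4 to 7, and 61 and 3 in animals 5 to 8. With no replicate block, which drops the pairing by animal, they were 1303 and 518. Without animals 3 and 4 the lower count was 116, and with a 2-fold minimum it was 33. Leaving out 1 animal gave 316 to 661 higher and 60 to 289 lower. The subsets 4 to 7, 5 to 8, and 5 and 8 were chosen after seeing the data. The cause of these shifts was not tested. Of the 787 calls, 787 were also made by DESeq2 and 776 with no replicate block, where Rsad2 and Csf1r were lost among the genes named.

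The differences of the liver effect, positive then negative, were 700 and 608 with no filter against DEN ALIOS mice, 696 and 633 with DESeq2, 99 and 117 with only these groups, 182 and 161 with PBS animals 5 to 8, and 208 and 159 with a 2-fold minimum, and 768 were positive with no replicate block. Against CXCR2i mice they were 715 and 296, 440 and 274, 47 and 59, and 20 and 40 in the same order, 468 and 194 with no replicate block, and 65 negative with a 2-fold minimum.

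Of the 787 calls, 782 could be tested in animals 5 and 8 alone, where 769 kept their direction. Among the values given in the report, changes of sign occurred where no difference had been called. The log2 fold change of Cd3e was -0.047 with no filter, -0.15 in animals 4 to 8, -0.17 in animals 4 to 7, -0.24 in animals 5 and 8, and -0.13 to 0.21 on leaving out 1 animal. Trac was 0.064 in animals 5 to 8, and Cd69 -0.007 with no filter. The liver minus blood difference of the log2 Cd8a to Cd4 ratio was -0.0213 to 0.111 on leaving out 1 animal, that of the mitochondrial percentage -0.546 to 2.48, and that of the ribosomal protein percentage -0.0947 to 0.33.

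Depth limits liver libraries 3 and 4, where 1 count is 2.83 and 3.69 CPM, so low values there rest on few counts. With 4 animals in the subset 5 to 8, 14 of 57 tested named calls remained, and all 57 kept their direction, which those animals had helped to set.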

Other observations

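Counts of further T cell gene groups stand beside 4.88% higher and 2.10% lower of all tested genes. Ly49 receptors, which natural killer cells and some T cells use to sense class I molecules, were higher in 4 of 9 tested cases and lower in 0, with a median log2 fold change of 1.06. These genes have close copies, so counts may be split between them. Type 17 genes, of interleukin 17 producing T cells, were higher in 3 of 7 and lower in 0 (median 1.39). Integrin and adhesion genes were higher in 7 of 19 and lower in 3 (median 0.43). Genes of regulatory T cells and TNF receptors were higher in 4 of 14 and lower in 0 (median 0.49).

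Chaperone and stress genes of the endoplasmic reticulum were higher in 4 of 16 tested cases and lower in 0 (median 0.47). Apoptosis and survival genes were higher in 2 of 15 and lower in 1 (median 0.05), and NF-kB feedback genes were higher in 2 of 14 and lower in 0 (median 0.18). Of 86 tested small nucleolar RNA genes 13 were higher and 0 lower, and their share of gene counts was 1.12% to 4.18% in liver libraries 1 to 4, 6 and 7 and 0.149% and 0.0712% in liver libraries 5 and 8, against at most 0.235% in blood libraries. The part of library quality in that count was not tested.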
